A study of Homo sapiens with 8 samples.

Results

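The 48 genes described here are interferon-stimulated and antigen processing genes, chosen by symbol from a list with earlier results of these data known. Shares of the 48 set beside all tested genes therefore describe the list and do not test it. The genes were followed across PNT2 cells, an immortalised line of human prostate epithelium, in which the repressors *ERF* and *CIC* had been lost singly or together. The list comprises 5 guanylate binding proteins, 6 antigen processing genes and the remaining 37, out of 33791 genes with a listed transcript. The 37 are called type I genes here only because they are the remainder, and their response to type I interferon was not tested. All 48 passed the filter on low counts, as did 14653 genes in all. RNA-seq was available for 4 groups of 2 libraries each, replicates A and B. The labels give only the genotypes WT, *ERF* KD, *CIC* KO and CIC-ERF codeletion, and the last is called *ERF* KD + *CIC* KO here. WT is taken to be the parental line. By the study's methods, *ERF* KD used lentiviral short hairpin RNAs against *ERF*, *CIC* KO used guide RNAs against *CIC*, and the double lines combined both. All lines derived from parental PNT2 cells, and the labels name neither the hairpin or guide in a library nor whether A and B were separate cultures, so that p-values measure only the spread between these libraries, which may be technical.

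*ERF* mRNA went against the labels of the single losses. It stood at 55.8 and 55.9 CPM (counts scaled to the size of the library) in WT, at 81.2 and 77.8 CPM in the libraries labelled *ERF* KD, at 18.8 and 11.7 CPM in those labelled *CIC* KO, and at 11.6 and 10.4 CPM in *ERF* KD + *CIC* KO. *CIC* mRNA, which a guide RNA need not lower, was at 128 and 129 CPM in WT and at 132 and 131 CPM in the libraries labelled *CIC* KO. It was lower in the libraries labelled *ERF* KD, at 108.5 and 108.9 CPM, and in *ERF* KD + *CIC* KO, at 90.9 and 66.4 CPM. The names under which the processed tables of these libraries were deposited carry the initials of the single losses the other way round from the labels, so that the labels of the single losses may be exchanged, which is not settled here. The single-loss groups are therefore called by their labels throughout, and no direction below is tied to the loss of either gene. Library totals ran from 19477473 to 25813157 estimated counts. The libraries labelled *ERF* KD also stood apart in cell type markers. The 5 epithelial markers summed to 1301 to 1586 CPM there against 3076 to 3691 in WT, and the 5 mesenchymal markers to 1776 to 2252 CPM against 168 to 292 in WT. The 7 leukocyte markers summed to 16.5 to 55.3 CPM over all libraries, nearly all of it *CD68* and *CD14*. The 3 plasmacytoid dendritic cell markers summed to 0.190 to 0.511 CPM over all libraries. Of these, *LILRA4* was at 0 in all 8 libraries, *CLEC4C* had 0 to 3 counts and *IL3RA* had 3 to 11 counts. The part of the epithelial and mesenchymal markers in the results below was not tested.

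Type I interferons bind a receptor that works through the kinases JAK1 and TYK2. A complex that includes STAT2 and IRF9 then binds interferon-stimulated response elements (ISRE) and switches on antiviral genes such as the *IFIT*, *OAS* and *MX* families. Interferon gamma acts on a second element, GAS, and raises most strongly the guanylate binding proteins, large GTPases that attack intracellular pathogens. Both interferons raise the immunoproteasome and the TAP transporter, which supply peptides to HLA class I molecules held together by B2M. In bulk RNA, fewer cells that use a gene and less RNA per cell cannot be told apart.

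RefSeq promoters (GRCh38.p14) were matched for 37 of the 48 genes, *DDX58* under its newer symbol *RIGI*. *GBP2*, *IFIT2*, *IFITM2*, *IRF2*, *IRF7*, *MX2*, *OAS2*, *OASL*, *USP18*, *NLRC5* and *TRIM22* had no entry. The ISRE core searched was GAAANNGAAA on either strand, and GAS was TTCNNNGAA, which reads the same on both strands. An ISRE core lay within the 250 bases before the start in 21 of the 37 (56.8%), against 3.02% of 35116 promoters of that length. GAS was found in 9 of the 37 (24.3%) against 6.57% of promoters. The 130 bases before the start are shown for 3 guanylate binding proteins, for *DDX60*, *HERC5* and *TAP2*, which were lower in the libraries labelled *ERF* KD, and for *ISG15* and *IFIT1*, abundant genes whose tests there missed the threshold. Capitals mark ISRE cores.
*GBP1* (chr1:89065209-89065338, minus strand): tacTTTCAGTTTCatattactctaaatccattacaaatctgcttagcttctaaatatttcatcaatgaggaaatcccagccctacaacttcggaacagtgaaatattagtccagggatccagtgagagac
*GBP4* (chr1:89198943-89199072, minus strand): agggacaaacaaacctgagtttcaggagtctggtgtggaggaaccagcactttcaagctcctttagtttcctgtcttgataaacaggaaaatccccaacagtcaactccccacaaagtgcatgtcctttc
*GBP6* (chr1:89363929-89364058, plus strand): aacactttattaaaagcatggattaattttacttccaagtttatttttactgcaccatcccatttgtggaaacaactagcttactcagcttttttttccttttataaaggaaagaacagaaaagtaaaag
*DDX60* (chr4:168318753-168318882, minus strand): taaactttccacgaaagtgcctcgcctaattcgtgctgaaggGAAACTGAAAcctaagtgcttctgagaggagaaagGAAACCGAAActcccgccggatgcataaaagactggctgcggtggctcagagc
*HERC5* (chr4:88456989-88457118, plus strand): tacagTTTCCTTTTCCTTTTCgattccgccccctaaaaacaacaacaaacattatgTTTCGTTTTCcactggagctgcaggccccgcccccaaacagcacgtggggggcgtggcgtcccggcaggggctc
*TAP2* (chr6:32838740-32838869, minus strand): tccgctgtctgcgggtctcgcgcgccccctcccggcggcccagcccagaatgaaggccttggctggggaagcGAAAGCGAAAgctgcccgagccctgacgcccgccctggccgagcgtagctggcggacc
*ISG15* (chr1:1013367-1013496, plus strand): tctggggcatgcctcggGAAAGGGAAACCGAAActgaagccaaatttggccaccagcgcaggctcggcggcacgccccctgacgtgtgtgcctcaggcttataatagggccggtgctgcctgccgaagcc
*IFIT1* (chr10:89392493-89392622, plus strand): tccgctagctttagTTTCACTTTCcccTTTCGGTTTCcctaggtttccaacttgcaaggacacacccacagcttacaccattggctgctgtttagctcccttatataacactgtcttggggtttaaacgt

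*ISG15*, *IFIT1* and *DDX60* each held 2 cores in this window, *HERC5* held 3, and *GBP1* and *TAP2* held 1, with overlapping cores in *ISG15* and *HERC5*. Neither motif was found in the 250 bases before *GBP4* or *GBP6*, and *GBP2* had no entry. Whether motifs go with the size of a change was not tested. A match is a match of letters only, and its absence says that these letters are not in this window.

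The genes were transcribed in WT cells, for which the labels name no interferon treatment. Per unit of length, *B2M*, the light chain of HLA class I, was the highest at 4090 ± 171 TPM (transcript abundance scaled for length and library size; mean ± SD, n = 2), followed by *IFI6*, an antiviral protein of mitochondria and the endoplasmic reticulum, at 1649 ± 57.4 TPM. *IFITM3*, which blocks viral entry, and *ISG15*, a ubiquitin-like modifier, came next at 754 ± 89.3 and 605 ± 188 TPM, and their libraries overlapped. The highest of the *IFIT*, *OAS* and *MX* families were *MX1* at 217 ± 32.5 TPM, *IFIT1* at 197 ± 44.9 TPM and *OAS3* at 101 ± 14.9 TPM. *IRF9*, the DNA-binding part of the type I complex, was the highest of the transcription factors at 157 ± 4.63 TPM. The guanylate binding proteins lay low in this order. *GBP3* and *GBP1* were at 21.6 ± 2.45 and 19.6 ± 1.60 TPM, with overlapping libraries, *GBP4* and *GBP2* were at 5.26 ± 1.52 and 4.0 ± 0.078 TPM, again overlapping, and *GBP6* was the lowest of all 48 at 2.96 ± 1.25 TPM. 28 of the 48 genes lie in 9 runs of neighbours less than 1000 kb apart, among them the 5 guanylate binding proteins on chromosome 1 (GRCh38, 89006666 to 89386461) and the 4 *IFIT* genes on chromosome 10. *IFITM1* and *IFITM2* share 351 exonic bases, and near-identical relatives within these families can split reads, so single values there are uncertain.

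**Figure D1:**
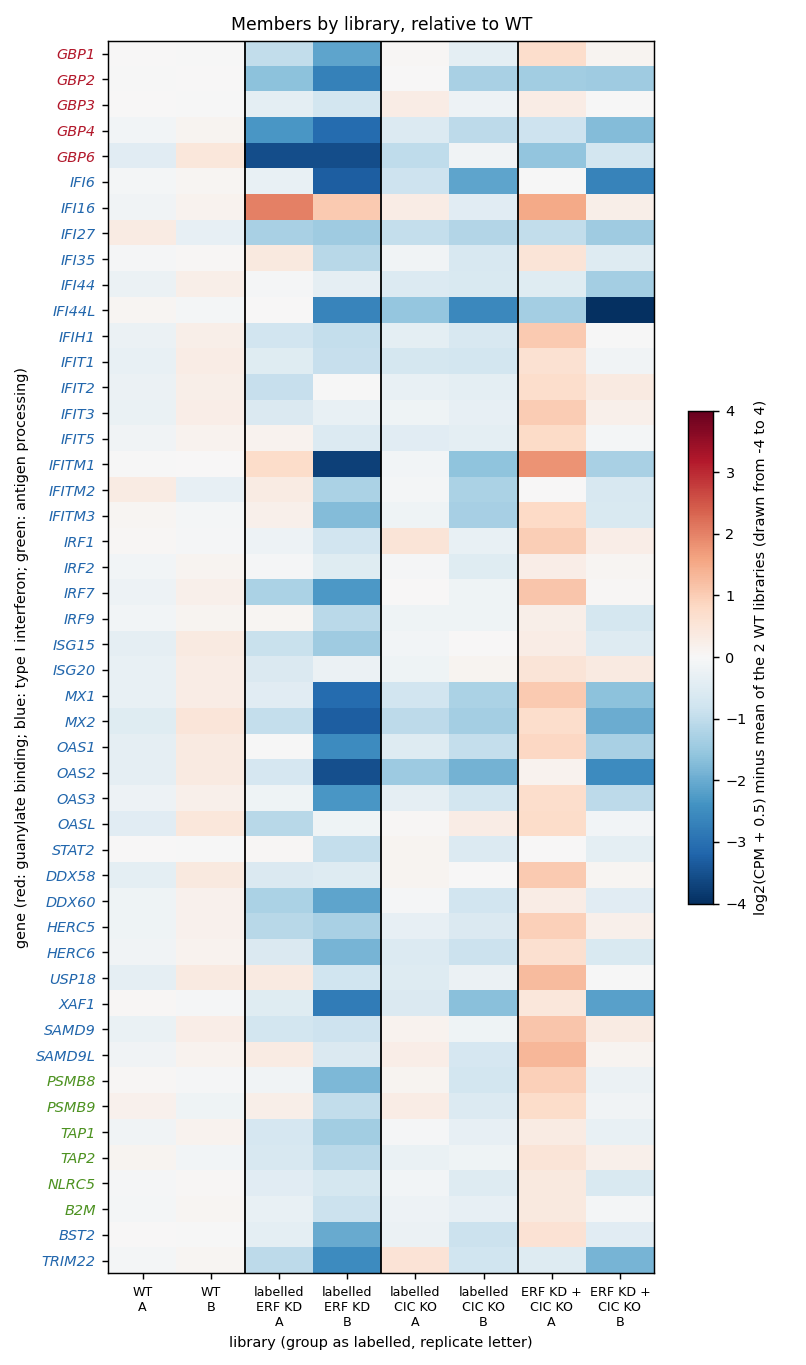
Colour gives log2(CPM + 0.5) of each gene (rows) in each of the 8 libraries (columns) minus the mean of the 2 WT libraries, drawn from -4 to 4. The guanylate binding proteins at the top are below WT in both libraries labelled *ERF* KD, whereas much of the type I list is blue in replicate B and near white or red in replicate A of the same group.

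Replicates A and B differed across the list as a whole in every group. In the libraries labelled *ERF* KD, 42 of 48 genes were higher in A, with a median difference of 0.93 on the log2(CPM + 0.5) scale against 0.00 over all tested genes, and 22 were at least 2-fold higher in A, where 3.38% of all tested genes were. In *ERF* KD + *CIC* KO, 47 of 48 were higher in A (median 0.90), and 21 were at least 2-fold higher against 1.62% of tested genes. The libraries labelled *CIC* KO showed 41 of 48 higher in A (median 0.43), with 8 at least 2-fold higher against 3.37%. In WT the balance was the other way, with 13 of 48 higher in A (median -0.28) and none of them 2-fold, where 1.43% of tested genes were. Libraries of the same letter also deviated together over all genes, so a fit with the letter as a block is given wherever it changes a result. The block gives each gene the same shift between letters in every group. For this list the median shift in WT was opposite in sign to that of the other groups. Calls made only with the block carry this limit. The block lowered the estimated biological coefficient of variation over all tested genes from 0.197 to 0.142, so more calls can arise for any gene. Shares of all tested genes are given for the fit without the block only, and counts with the block have none beside them.

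The genes that differed most between the letters were among the type I genes. *IFI6* was at 578 CPM in A and 72.3 CPM in B of the libraries labelled *ERF* KD, and at 700 and 111 CPM in *ERF* KD + *CIC* KO, while WT held 667 and 753 CPM. *IFITM1*, another entry blocker, was at 139 and 5.71 CPM in the libraries labelled *ERF* KD and at 291 and 33.4 CPM in *ERF* KD + *CIC* KO, with 76.4 and 26.8 CPM in those labelled *CIC* KO and 82.5 and 82.7 CPM in WT. *MX1*, a GTPase that traps viral particles, was at 251 and 40.1 CPM in the libraries labelled *ERF* KD, 203 and 141 CPM in those labelled *CIC* KO, 709 and 109 CPM in *ERF* KD + *CIC* KO, and 279 and 418 CPM in WT. For *IFITM1*, both WT libraries lay between replicates B and A of the libraries labelled *ERF* KD and of *ERF* KD + *CIC* KO, and above both libraries labelled *CIC* KO. *IFIT2*, which inhibits translation of viral RNA, went the other way in the libraries labelled *ERF* KD at 118 CPM in A and 223 CPM in B, and *OASL*, an activator of RNA sensing, did so too at 41.3 and 80.7 CPM. For the guanylate binding proteins, A minus B on the log2 scale ran from 0.00 (*GBP6*, at 0 counts in both) to 1.12 in the libraries labelled *ERF* KD, with a median of 0.77 against 0.997 for the type I genes. It ran from -0.87 to 1.32 in those labelled *CIC* KO (median 0.48 against 0.38) and from -0.85 to 0.91 in *ERF* KD + *CIC* KO (median 0.33 against 1.01).

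**Figure D2:**
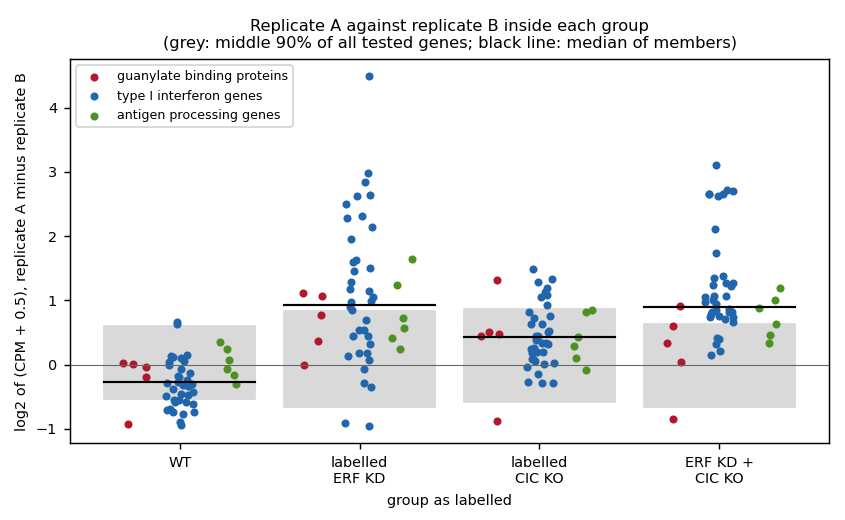
Each point is a gene, placed by its log2(CPM + 0.5) in replicate A minus replicate B of one group; the grey band holds the middle 90% of all tested genes and the black line is the median of the 48. In WT, 13 of the 48 points lie above 0 and the median is -0.28. In the other groups most points lie above the grey band's centre, reaching 4.49 for *IFITM1* in the libraries labelled *ERF* KD.

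The libraries labelled *ERF* KD were compared with WT to ask what changed in the group that carries this label. The guanylate binding proteins were lower, in 4 of 5 cases past the test, while the type I genes gave 4 of 37 and the antigen processing genes 1 of 6. In all, 9 of the 48 were lower and none higher at an adjusted p under 0.05 (edgeR quasi-likelihood test, Benjamini-Hochberg over all tested genes). That was 18.8% of the list, where 6.07% of all tested genes were lower and 10.1% differed in either direction. Because the list was chosen with earlier results known, these shares are not an independent comparison. The 9 include *IFI27*, which passed the filter on low counts only through its WT libraries. They also include 4 guanylate binding proteins, which are neighbours on chromosome 1. The median log2 fold change of the 48 was -0.81, and it was -2.54 for the guanylate binding proteins and -0.72 for the type I genes, against 0.01 for all tested genes. Both libraries lay below both WT libraries for 29 of the 48 (60.4%), including all 5 guanylate binding proteins, where 28.0% of tested genes did so. With the letter as a block, 16 of the 48 were lower and 1, *IFI16*, was higher. The share of all tested genes in that fit is not given here, so its count is not set against a background. The count depended on single libraries: without replicate B of the libraries labelled *ERF* KD, or without replicate B of WT, only 2 remained, and without replicate A of WT 3 of them did.

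Among the guanylate binding proteins, *GBP6* and *GBP4* gave the largest differences. *GBP6*, one of the less studied members of the family, had 78 and 147 counts in WT, while both libraries labelled *ERF* KD held 0. That put WT at least 38.2-fold higher, taking 3 counts per library as the floor. It had 51 and 99 counts in the libraries labelled *CIC* KO and 34 and 53 in *ERF* KD + *CIC* KO, so that the 0 was found in the libraries labelled *ERF* KD and in no other group. *GBP4* stood at 15.8 and 18.05 CPM in WT, 2.98 and 1.54 CPM in the libraries labelled *ERF* KD, 11.3 and 7.99 CPM in those labelled *CIC* KO and 9.35 and 4.74 CPM in *ERF* KD + *CIC* KO, and no library labelled *ERF* KD reached any other library. Its log2 fold change in the libraries labelled *ERF* KD was -2.90 ± 0.43 (SE; edgeR adjusted p = 0.00452). The calls of *GBP4* and *GBP6* held in all 8 fits that left out 1 library. That of *GBP4* was lost with length-scaled counts (edgeR adjusted p = 0.118) and in limma with pseudocounts of 1 and 0.1 TPM (adjusted p = 0.0808 and 0.105).

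*GBP1*, the best studied of the family and a coat on cytosolic bacteria, was at 32.5 and 32.3 CPM in WT, 16.2 and 7.20 CPM in the libraries labelled *ERF* KD, 33.6 and 24.5 CPM in those labelled *CIC* KO and 53.3 and 35.0 CPM in *ERF* KD + *CIC* KO. The libraries labelled *ERF* KD were the lowest, at -1.46 ± 0.37 on the log2 scale against WT (edgeR adjusted p = 0.0409). *GBP2*, which targets vacuoles that hold pathogens, was at 5.60 and 5.76 CPM in WT, 1.49 and 0.447 CPM in the libraries labelled *ERF* KD, 5.81 and 2.02 CPM in those labelled *CIC* KO and 1.86 and 1.80 CPM in *ERF* KD + *CIC* KO. Against WT it was -2.54 ± 0.63 in the libraries labelled *ERF* KD (edgeR adjusted p = 0.0409), and its counts there were only 31 and 9. *GBP2* shares 621 exonic bases on its strand with *GBP7*. For *GBP1* and *GBP2*, 5 of the 8 fits without 1 library no longer passed, among them those without either WT library or without replicate B of the libraries labelled *ERF* KD. *GBP3* was at 28.8 and 28.4 CPM in WT, 21.9 and 16.9 CPM in the libraries labelled *ERF* KD, 35.5 and 24.9 CPM in those labelled *CIC* KO and 35.5 and 28.1 CPM in *ERF* KD + *CIC* KO. Its difference of -0.56 ± 0.22 did not pass (edgeR adjusted p = 0.157) but did with the letter as a block (edgeR adjusted p = 0.0326).

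**Figure D3:**
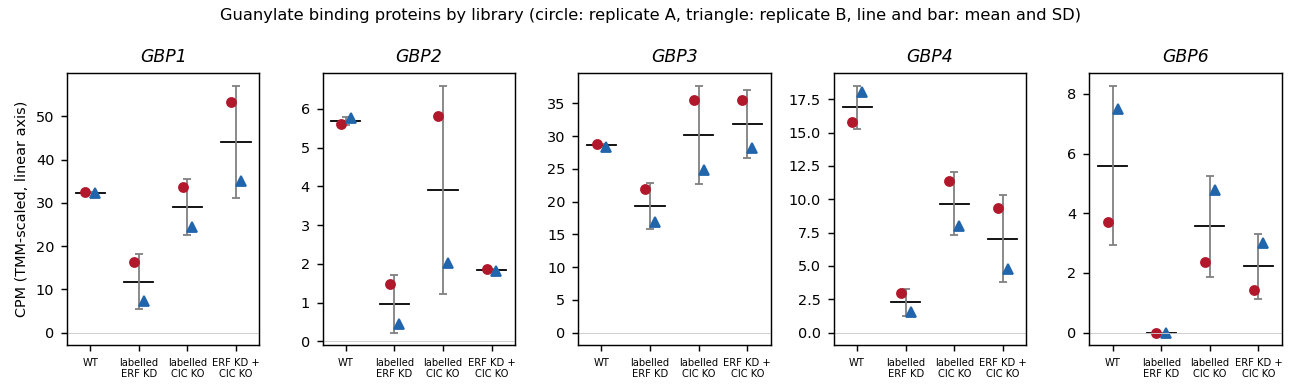
CPM of the 5 guanylate binding proteins in each library on linear axes, with circles for replicate A, triangles for replicate B, and the mean and SD of each group (n = 2). Both libraries labelled *ERF* KD lie below both WT libraries in every panel, at 0 for *GBP6*, and both *ERF* KD + *CIC* KO libraries lie below WT for *GBP2*, *GBP4* and *GBP6*.

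Among the transcription factors and sensors, *IRF7* and *DDX60* were lower in the libraries labelled *ERF* KD. *IRF7*, which amplifies type I interferon production, was at 28.1 and 36.9 CPM in WT, 13.2 and 6.11 CPM in the libraries labelled *ERF* KD, 32.5 and 28.3 CPM in those labelled *CIC* KO and 70.6 and 33.5 CPM in *ERF* KD + *CIC* KO. No other group overlapped the libraries labelled *ERF* KD, where the log2 fold change against WT was -1.75 ± 0.42 (edgeR adjusted p = 0.0362). *DDX60*, a helicase that assists RIG-I, was at 116 and 146 CPM in WT, 53.9 and 29.7 CPM in the libraries labelled *ERF* KD, 127 and 76.9 CPM in those labelled *CIC* KO and 161 and 95.4 CPM in *ERF* KD + *CIC* KO. It was lower by the same test at -1.65 ± 0.37 (edgeR adjusted p = 0.0263). Both calls were lost without either WT library or without replicate B of the libraries labelled *ERF* KD. *IFIH1*, the sensor MDA5 of long double-stranded RNA, did not pass there at -0.88 ± 0.32 (edgeR adjusted p = 0.125), nor did *IRF9*, at 95.4 and 42.1 CPM against 84.3 and 96.7 CPM in WT (-0.40 ± 0.39, edgeR adjusted p = 0.585). *IRF1*, *IRF2*, *STAT2* and *DDX58*, which encodes RIG-I, ranged from -0.60 to -0.27 and none passed.

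Of the antiviral effectors, *HERC5* and *IFI27* passed the test. *HERC5*, the ligase that attaches ISG15 to new proteins, was at 52.3 and 65.6 CPM in WT, 26.9 and 23.8 CPM in the libraries labelled *ERF* KD, 47.0 and 39.4 CPM in those labelled *CIC* KO and 113 and 67.2 CPM in *ERF* KD + *CIC* KO. A and B lay close together in that group, and the fold change in the libraries labelled *ERF* KD was -1.22 ± 0.25 (edgeR adjusted p = 0.0187), lost without either of those libraries or without replicate B of WT. *IFI27*, a mitochondrial protein, had 25 and 11 counts in WT and 1 and 0 counts in the libraries labelled *ERF* KD. It had 4 and 2 in those labelled *CIC* KO and 4 and 0 in *ERF* KD + *CIC* KO. Only its WT libraries were high enough for the filter on low counts, so the filter favoured a call of lower against WT. Its call is therefore no support for a change. WT was above the libraries labelled *ERF* KD by a ratio of 36.25 (exact 95% counting interval 6.10 to 1471) at an edgeR adjusted p of 0.0497, and 6 of 8 fits without 1 library lost it. *ISG15* itself was at 162 and 272 CPM in WT and 113 and 77.4 CPM in the libraries labelled *ERF* KD, which just missed the threshold (-1.19 ± 0.33, edgeR adjusted p = 0.0595; 0.0335 with the letter as a block). The 4 *IFIT*, 3 *IFITM*, 4 *OAS* and 2 *MX* genes gave no call in this comparison. Their log2 fold changes ran from -1.82 for *MX2* to -0.16 for *IFIT5*, and the standard errors reached 1.24 for *IFITM1*. *IFIT1*, which holds foreign RNA caps, was at 176 and 265 CPM in WT and 154 and 113 CPM in the libraries labelled *ERF* KD (-0.72 ± 0.28, edgeR adjusted p = 0.155), and *OAS3*, a maker of the RNase L activator, was at 332 and 445 CPM against 341 and 76.5 CPM (-0.90 ± 0.69, edgeR adjusted p = 0.473).

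*IFI16*, a sensor of DNA, was the one gene of the 48 with an estimate above 0. It was at 17.1 and 21.3 CPM in WT, 78.3 and 39.5 CPM in the libraries labelled *ERF* KD, 23.5 and 13.7 CPM in those labelled *CIC* KO and 54.9 and 22.6 CPM in *ERF* KD + *CIC* KO. Both libraries labelled *ERF* KD exceeded WT, by 1.62 ± 0.47 on the log2 scale, which did not pass in the fit of all 4 groups (edgeR adjusted p = 0.0688). It passed with the letter as a block (edgeR adjusted p = 0.0141), in DESeq2, without the filter on low counts, with only the groups compared, and without either *ERF* KD + *CIC* KO library. It was singled out after its values were seen.

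Antigen processing genes need a caution, because *PSMB8*, *PSMB9*, *TAP1* and *TAP2* lie in the HLA region of chromosome 6, where most of their reads were assigned to transcripts of alternate haplotypes. The primary copy held 3.93% to 8.42% of the *PSMB8* reads and 29.6% to 47.4% of the *TAP2* reads. *TAP2*, a subunit of the peptide transporter, was at 62.5 and 52.9 CPM in WT, 36.4 and 27.3 CPM in the libraries labelled *ERF* KD, 48.2 and 51.1 CPM in those labelled *CIC* KO and 82.9 and 65.7 CPM in *ERF* KD + *CIC* KO on its primary copy. The libraries labelled *ERF* KD were the lowest, at -0.86 ± 0.19 against WT (edgeR adjusted p = 0.0237), a call lost without either WT library or without replicate B of the libraries labelled *ERF* KD. With all copies added the difference was -0.73 ± 0.19 (edgeR adjusted p = 0.0493), from 3515 and 3309 counts in WT to 2298 and 1855. This gene also shares 2064 exonic bases with an annotated transcript on its strand, *AL669918.1*. The immunoproteasome subunits *PSMB8* and *PSMB9* and the partner *TAP1* did not pass with all copies added, at -0.55 ± 0.41, -0.26 ± 0.48 and -0.30 ± 0.29. *B2M* was at 981 and 1100 CPM in WT and 844 and 571 CPM in the libraries labelled *ERF* KD (-0.56 ± 0.22, edgeR adjusted p = 0.162; 0.0481 with the letter as a block), and *NLRC5*, the activator of class I genes, was at -0.58 ± 0.31 (edgeR adjusted p = 0.303).

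Genes around the pathway were read from a list by role. Transcripts of the interferons were close to 0. *IFNB1* reached at most 0.466 CPM and *IFNL1* at most 0.561 CPM, *IFNG* and *IFNA1* were at 0 in all 8 libraries, and *IFNE*, an epithelial interferon, was the only one of 8 that could be tested. Of 9 receptors and kinases, only *IFNLR1*, the lambda interferon receptor, was lower in the libraries labelled *ERF* KD, at -1.26 ± 0.25 (edgeR adjusted p = 0.0171). *IFNAR1*, *IFNAR2*, *JAK1* and *TYK2* lay between -0.13 and 0.22 and did not pass. Among further factors and brakes, *IRF8* and *IRF5*, transcription factors of the same family as *IRF7*, were lower at -3.56 ± 0.58 and -1.47 ± 0.29 (edgeR adjusted p = 0.00690 and 0.0165). None of 7 tested sensing genes and 1 of 13 tested interferon-stimulated genes outside the list passed, the latter being *IFI30*, a lysosomal reductase of antigen processing, at -1.57 ± 0.14 (edgeR adjusted p = 0.000324). Among antigen presentation genes, read with all haplotype copies where they lie in the HLA region, *HLA-F* was lower at -1.51 ± 0.30 (edgeR adjusted p = 0.0166). The 3 constitutive proteasome subunits replaced by the immunoproteasome, *PSMB5*, *PSMB6* and *PSMB7*, did not pass at 0.26, 0.11 and 0.31.

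The libraries labelled *CIC* KO gave no call against WT among the 48, as among all tested genes (0%). Their log2 fold changes had a median of -0.37, and 43 of 48 were below 0, a count given without the share of all tested genes. An unadjusted p under 0.05 was reached by 2 of the 48 in edgeR and by 3 in DESeq2. Limma gave 4 and 3 with pseudocounts of 1 and 0.1 TPM. The share of all tested genes at that cut is not given here, and neither DESeq2 nor limma made a call. Read letter by letter, which sets 1 library against 1, replicate B of the libraries labelled *CIC* KO was below replicate B of WT for all 48 genes. The median was -0.69, against 0.0019 over all tested genes. Replicate A was below replicate A of WT for 28 of 48, with a median of -0.10 against 0.011. The guanylate binding proteins ranged from -0.81 for *GBP4* to 0.08 for *GBP3*.

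Loss of both factors by label gave no call against WT either, where 10 of all tested genes differed (0.0682%). The median was 0.16, with 31 of 48 above 0. An unadjusted p under 0.05 was reached by 8 of 48 in edgeR, 12 in DESeq2 and 6 and 5 in limma. Shares of all tested genes above 0 or at that cut are not given here, and DESeq2 and limma made no call. The letters pulled apart here as well. Replicate A was above replicate A of WT for 39 of 48 genes (median 0.69, against -0.0038 over all tested genes). Replicate B was below replicate B of WT for 39 of 48 (median -0.45, against 0.00091). Each of these sets 1 library against 1. The guanylate binding proteins did not move as one. *GBP2* and *GBP4* were at -1.63 ± 0.60 and -1.25 ± 0.39 against WT and *GBP1* and *GBP3* at 0.45 ± 0.35 and 0.16 ± 0.22, none of which passed (edgeR adjusted p = 0.315, 0.239, 0.608 and 0.787). For *GBP6* the counts gave WT a ratio of 2.63 over *ERF* KD + *CIC* KO (exact 95% counting interval 2.04 to 3.41), and the test did not pass (edgeR adjusted p = 0.371).

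**Figure D4:**
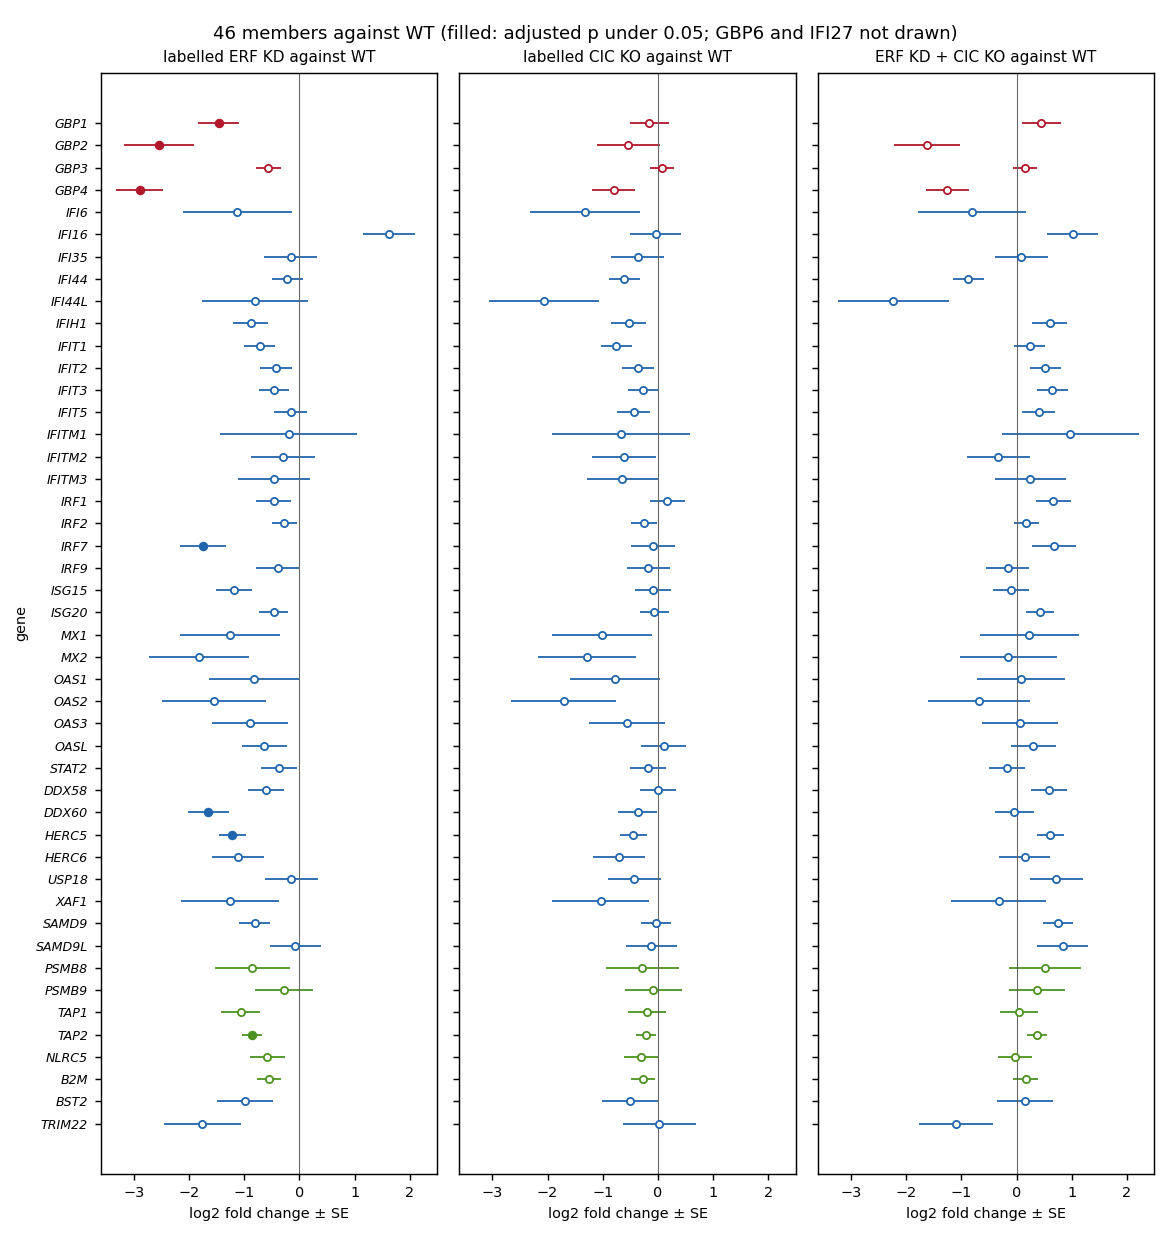
Log2 fold change against WT with its standard error for 46 of the 48 genes in the 3 comparisons with WT, filled where the adjusted p was under 0.05; *GBP6* and *IFI27* are left out because a group was at 3 counts or under. All points but *IFI16* lie left of 0 in the libraries labelled *ERF* KD, 7 of them filled, and none is filled in the other panels.

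*ERF* KD + *CIC* KO was higher than the libraries labelled *ERF* KD for 10 of the 48 and lower for none, where 6.04% of all tested genes were higher and 11.7% differed in either direction. These were *GBP1*, *GBP4*, *GBP6*, *IFIH1*, *IFIT3*, *IRF7*, *DDX60*, *HERC5*, *SAMD9* and *TAP2*. *GBP1* was higher by 1.91 ± 0.37 on the log2 scale and *GBP4* by 1.64 ± 0.42 (edgeR adjusted p = 0.0133 and 0.0410). *GBP6* was at least 15.1-fold higher than the floor. In limma, *GBP1* passed with pseudocounts of 1 and 0.1 TPM, *GBP6* with 0.1 TPM only and *GBP4* with neither. *IRF7* was higher by 2.43 ± 0.43 and *HERC5* by 1.83 ± 0.25 (edgeR adjusted p = 0.00898 and 0.00300). *IFIH1* was at 231 and 111 CPM in *ERF* KD + *CIC* KO against 65.2 and 57.3 CPM in the libraries labelled *ERF* KD, higher by 1.48 ± 0.32 (edgeR adjusted p = 0.0215). *SAMD9*, an antiviral restriction factor, was higher by 1.56 ± 0.28 and *IFIT3*, the stabiliser of IFIT1, by 1.11 ± 0.28 (edgeR adjusted p = 0.0101 and 0.0406). Both libraries were above both libraries labelled *ERF* KD for 22 of 48 (45.8%), where 26.8% of tested genes were. With the letter as a block 22 of 48 passed, all higher, and without replicate A of *ERF* KD + *CIC* KO 3 did, and without replicate B of the libraries labelled *ERF* KD 6. *GBP6*, *HERC5* and *TAP2* held in all 8 fits without 1 library, and *IFIT3* in 3. This comparison shares the libraries labelled *ERF* KD with the one against WT.

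Against the libraries labelled *CIC* KO, *ERF* KD + *CIC* KO gave no call in edgeR, as among all tested genes (0%). DESeq2 gave 3 calls and limma none. In edgeR 9 of 48 had an unadjusted p under 0.05, and the share of all tested genes at that cut is not given here. The libraries labelled *ERF* KD were lower than those labelled *CIC* KO for 3 of 48, *GBP4*, *GBP6* and *IRF7*. That share is below the 9.40% of all tested genes that differed in either direction, so the list did not stand out here. The share of tested genes that were lower is not given here. *GBP4* was lower at -2.09 ± 0.42 and *IRF7* at -1.65 ± 0.42 (edgeR adjusted p = 0.0179 and 0.0460), and the libraries labelled *CIC* KO were at least 24.3-fold higher than the floor for *GBP6*. With the letter as a block 12 were lower, all 5 guanylate binding proteins among them, and *IFI16* was higher, with no share of all tested genes beside them. Without replicate A of the libraries labelled *CIC* KO 1 of 48 passed, and without replicate A of the libraries labelled *ERF* KD, or either *ERF* KD + *CIC* KO library, 5 did. *GBP6* held in all 8 fits without 1 library, *GBP4* in 6 and *IRF7* in 3.

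The interaction asks whether the change with both losses differs from the sum of the changes with each. For 4 of the 48 it was above that sum, *GBP6*, *HERC5*, *TAP2* and *IFIH1*. Of all tested genes, 2.67% were above and 4.15% differed in either direction. Of the 4, limma with a pseudocount of 1 TPM kept only *HERC5*, and with 0.1 TPM it kept *HERC5* and *GBP6*. *HERC5* gave 2.28 ± 0.35 (edgeR adjusted p = 0.0107) and held in all 8 fits without 1 library, as did *GBP6* (edgeR adjusted p = 0.0169), whose fitted size is no bound because of the 0 counts. *IFIH1* gave 2.02 ± 0.45 (edgeR adjusted p = 0.0466) and passed in 1 of those 8 fits. *TAP2* gave 1.44 ± 0.26 (edgeR adjusted p = 0.0213) on its primary copy, which passed in 3 of them, and 0.97 ± 0.27 (edgeR adjusted p = 0.10) with all copies added, or 0.96 ± 0.22 (edgeR adjusted p = 0.0302) with the letter as a block as well. With the letter as a block 14 of 48 passed, all above the sum, again with no share of all tested genes beside them. Without replicate A of WT, either library labelled *CIC* KO or replicate A of *ERF* KD + *CIC* KO, 2 did, and without replicate A of the libraries labelled *ERF* KD or replicate B of *ERF* KD + *CIC* KO, 8 and 9 did.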

How the data were processed

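The deposited files hold, for each of 8 PNT2 libraries, kallisto estimated counts and TPM per transcript, made by the authors. The submitters' processing notes name hg19, the study's methods name RSEM, and the transcripts listed match GENCODE release 29 (GRCh38), whose coordinates are given. Deposited estimated counts of the 153245 of 180253 transcripts (85.0%) with a release 29 gene on a primary chromosome were summed per gene and rounded. They held 93.2% to 93.3% of library totals (19477473 to 25813157). Strandedness is not given in the sources used here.

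Genes passing filterByExpr (14653) were fitted in 1 model of 4 groups with edgeR 4.0.16 (R 4.3.3; TMM, quasi-likelihood F test, Benjamini-Hochberg). SE is the log2 fold change divided by the root of F. CPM are scaled by TMM. Differences between replicates used log2(CPM + 0.5), and intervals and the floor of 3 counts cover counting error only. The 48 genes and all lists were chosen with earlier results of these data known. Named genes were the guanylate binding proteins, those called in the libraries labelled *ERF* KD or *ERF* KD + *CIC* KO against WT or in the interaction, and the highest in WT of each role, plus genes of role lists by size of change. Replicate letters were taken to pair libraries because A minus B correlated over genes in all 6 pairs of groups (r from 0.21 to 0.44), and a block of the letter was fitted. Other alternatives were DESeq2 1.42.0, no filter, length-scaled counts, limma 3.58.1 on the deposited TPM as log2(TPM + 1) or log2(TPM + 0.1), only the groups compared, and each library left out. Adding transcripts of alternate haplotypes to the gene of the same symbol was chosen after seeing the data. The fit was tested on simulated counts. Some genes of the role lists are not reported here.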

Additional observations from a re-analysis of the deposited data

Results flagged for a closer look

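The change with both losses differed from the sum of the single-loss changes, by the interaction term of the edgeR fit, for 4 genes. The adjusted p was 0.0107 for *HERC5*, 0.0169 for *GBP6*, 0.0213 for *TAP2* and 0.0466 for *IFIH1*. For *TAP2* this was the primary copy, and with all haplotype copies added the edgeR adjusted p was 0.10. In limma on log2(TPM + 1), *GBP6*, *TAP2* and *IFIH1* did not pass. Groups of 2 libraries were not examined for outliers.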

How the results depend on the processing

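Counts of the 48 genes past the threshold moved with the processing, and the causes were not tested. The share of all tested genes that passed is given for the main fit only. Higher counts in other fits are therefore not read as stronger results about the list. In the order labelled *ERF* KD against WT, *ERF* KD + *CIC* KO against labelled *ERF* KD, labelled *ERF* KD against labelled *CIC* KO, and interaction, the counts of 9, 10, 3 and 4 became 17, 22, 13 and 14 with the replicate letter as a block and 28, 37, 17 and 32 without the filter on low counts. DESeq2 gave 13, 19, 12 and 13, limma on log2(TPM + 1) gave 3, 6, 1 and 1, limma on log2(TPM + 0.1) gave 6, 7, 1 and 2, and length-scaled counts gave 6, 10, 3 and 3, where *GBP2*, *GBP4* and *IFI27* no longer passed against WT. Adding the alternate haplotypes together with the block gave 16, 23, 12 and 15. Leaving out 1 library gave 2 to 10, 3 to 13, 1 to 5 and 2 to 9. The comparisons with no call stayed at 0 in these fits, except that without the filter 7 genes passed for labelled *CIC* KO against WT, 17 for *ERF* KD + *CIC* KO against WT and 19 for *ERF* KD + *CIC* KO against labelled *CIC* KO, and that DESeq2 gave 3 for the last of these.

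Of the 23 results of single genes refitted, those of *IFITM3* and *IRF9* in the libraries labelled *ERF* KD against WT reversed, each without replicate B of that group. Leaving out 1 library, *IFITM3* ran from -1.74 to 0.21 and *IRF9* from -1.10 to 0.079. Of 387 refits of 23 results of single genes, 303 kept their direction and side of the threshold, 61 no longer passed and 21 newly passed. Depth limits *GBP6*, *IFI27* and *GBP2*, with few counts, and 2 libraries a group limit every result.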
